A study of Mus musculus with 16 samples.

Results

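The genes described here encode the synaptic vesicle and release machinery, the proteins that fill, dock, fuse and retrieve the neurotransmitter vesicles of presynaptic terminals. They were taken from a list of 37 genes, of which 36 had a count of at least 10 in 4 or more of the 16 libraries, out of 16934 genes in the count table. Syn3, a synapsin, did not meet the rule: it had a count of at least 10 in 3 libraries and a count of 0 in 11. All 36 entered the test across 13139 genes. Messenger RNA had been read from the 3′ ends of transcripts in cortical neurons taken from C57BL/6 mouse embryos at E15-16 and cultured for 14 days. The 4 groups of 4 libraries were neurons loaded with Atto488-labelled α-synuclein fibrils (0.1 µM for 16 h, then washed) and kept with microglia for 6 h, untreated neurons kept with microglia for 6 h, loaded neurons alone, and untreated neurons alone. They are called loaded co-cultures, untreated co-cultures, loaded neurons alone and untreated neurons alone below. The labels name the cells as neurons in every group, and are silent on whether and how microglia were removed before RNA isolation and on whether each library is a culture or animal of its own. The p-values below measure only library-to-library spread, part or all of which may be technical.

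Levels are given in CPM, counts scaled to a common library size by TMM (a correction for library composition). Each transcript gives reads from its 3′ end only, so CPM does not scale with transcript length. The annotation and strand setting of the counting are not given, so comparisons of level between genes are approximate. Total counts were 6511516 to 13986374 per library, and 3 counts, the upper limit that a count of 0 allows (95% level, counting error only), came to 0.220 to 0.473 CPM. The neuronal label was checked against markers: all 18 neuronal identity genes were detected in every group, with summed levels of 3618 to 5337 CPM in loaded co-cultures, 2589 to 4703 CPM in untreated co-cultures, 3019 to 10728 CPM in loaded neurons alone and 4769 to 11383 CPM in untreated neurons alone. Microglial transcripts stood out in 2 libraries, replicate 1 of the loaded co-cultures (1453 CPM summed over 15 genes) and replicate 1 of the untreated co-cultures (734 CPM), where the remaining 6 co-cultures had 13.7 to 79.9 CPM and neurons alone had 8.0 to 41.0 CPM. Transcripts of the oligodendrocyte lineage (16 genes) summed to 6292 to 10380 CPM and 4375 to 8701 CPM in loaded and untreated co-cultures, above the neuronal identity sum in 7 of 8 co-culture libraries, and to 1536 to 3200 CPM and 1154 to 2217 CPM in loaded and untreated neurons alone. Astrocyte markers (10 genes) summed to 997 to 3748 CPM in loaded and 1452 to 6753 CPM in untreated co-cultures. In neurons alone they summed to 3401 to 7838 CPM (loaded) and 2403 to 7452 CPM (untreated). They exceeded the neuronal identity sum in replicates 1 and 2 of loaded neurons alone and replicate 1 of untreated neurons alone. The same held in replicate 4 of both co-culture groups. P2ry12 and Tmem119, defining genes of resident microglia, were at 0 in all groups. CPM is a share of each library's scaled total. In these bulk libraries, fewer neurons, less RNA per neuron and more RNA from other cells therefore cannot be told apart.

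In a resting terminal, synapsins tether vesicles to each other and to actin, and vesicular transporters load them with glutamate. RIM, Munc13, Bassoon, Piccolo and ELKS proteins build the active zone, where vesicles are docked and primed. Calcium binding to synaptotagmins then drives SNARE proteins to fuse the membranes, complexins clamp and support that step, NSF with its SNAP adaptors takes the SNARE complex apart, and dynamin, amphiphysin and endophilin retrieve the membrane.

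The windows before the annotated starts of 4 members are shown. Syn2 had the smallest p of the members for the average microglia effect described below. Bsn and Pclo encode partner scaffolds of the active zone, with log2 changes in co-culture of -1.48 and 0.23, neither of them called. Syt11 was the most abundant member and differed little between groups. Each holds the 250 bases before a RefSeq start in mm10 (GRCm38.p6), written along the gene's own strand. Syn2 has 2 annotated starts, at the windows chr6:115134652-115134901 and chr6:115238744-115238993 (plus strand). Bsn is at chr9:108190384-108190633 (minus strand), Pclo at chr5:14514668-14514917 (plus strand) and Syt11 at chr3:88772600-88772849 (minus strand). In GENCODE, Syt11 spans chr3:88744700-88775164, so its window lies inside the gene, as does that of the second Syn2 start. Capitals mark motif matches: the GC box GGGCGG in Syn2 (first start), Pclo and Syt11, the CCAAT box on the reverse strand in Syn2 (second start), and in Bsn the NRF1 core GCGCATG, whose matches on both strands overlap.
Syn2, first start: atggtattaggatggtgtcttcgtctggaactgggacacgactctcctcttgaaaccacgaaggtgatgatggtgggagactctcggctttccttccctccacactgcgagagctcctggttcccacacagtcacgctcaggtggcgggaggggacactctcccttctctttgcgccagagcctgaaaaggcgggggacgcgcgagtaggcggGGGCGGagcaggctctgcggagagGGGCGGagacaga
Syn2, second start: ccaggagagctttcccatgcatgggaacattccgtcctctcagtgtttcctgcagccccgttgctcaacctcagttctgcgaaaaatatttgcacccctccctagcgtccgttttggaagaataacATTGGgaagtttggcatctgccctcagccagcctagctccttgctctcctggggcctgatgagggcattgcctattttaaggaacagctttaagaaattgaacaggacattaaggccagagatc
Bsn: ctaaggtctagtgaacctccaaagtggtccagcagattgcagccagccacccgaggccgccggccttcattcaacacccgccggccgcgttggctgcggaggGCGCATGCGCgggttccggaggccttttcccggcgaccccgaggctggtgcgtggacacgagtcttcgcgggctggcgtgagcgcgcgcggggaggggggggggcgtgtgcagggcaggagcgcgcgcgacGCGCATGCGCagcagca
Pclo: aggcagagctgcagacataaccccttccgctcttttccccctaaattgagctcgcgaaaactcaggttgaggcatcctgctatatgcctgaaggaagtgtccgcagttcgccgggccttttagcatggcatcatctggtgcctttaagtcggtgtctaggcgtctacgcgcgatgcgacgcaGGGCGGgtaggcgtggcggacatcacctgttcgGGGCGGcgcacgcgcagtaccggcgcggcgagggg
Syt11: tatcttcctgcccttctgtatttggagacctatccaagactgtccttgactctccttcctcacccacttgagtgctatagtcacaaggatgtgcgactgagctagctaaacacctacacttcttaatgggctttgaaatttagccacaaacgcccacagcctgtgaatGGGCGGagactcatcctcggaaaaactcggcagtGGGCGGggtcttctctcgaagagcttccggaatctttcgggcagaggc
Of the members, 28 had such a window, 35 windows in all, and 5 motifs were searched on both strands. The GC box GGGCGG was found in 54.3% of the members' windows, against 32.7% of all 32851 windows of this length. The other 4 were found in 17.1% against 17.8% (TGACG, the CRE core), 5.71% against 12.4% (TATAAA), 20% against 33.8% (CCAAT) and 5.71% against 3.24% (GCGCATG). These are matches of letters and say nothing of whether a factor binds.

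In untreated neurons alone, the 36 genes spanned a wide range of abundance. Syt11, a synaptotagmin that does not bind calcium, came first at 1427 ± 297 CPM (SD, n = 4) and Syt1, the calcium sensor of fast release, second at 1210 ± 484 CPM. These levels lie within each other's spread. Next came Syn2 (508 ± 173 CPM), Sv2a, a vesicle glycoprotein (459 ± 159 CPM), the ATPase Nsf (406 ± 218 CPM) and Slc17a7, the vesicular glutamate transporter VGLUT1 (377 ± 228 CPM), also within each other's spread. At the low end were Vamp1 (34.9 ± 11.3 CPM), Slc17a6, which encodes VGLUT2 (31.9 ± 6.46 CPM), Unc13b (22.3 ± 14.5 CPM) and the synaptophysin relative Synpr (7.70 ± 4.87 CPM).

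**Figure D1:**
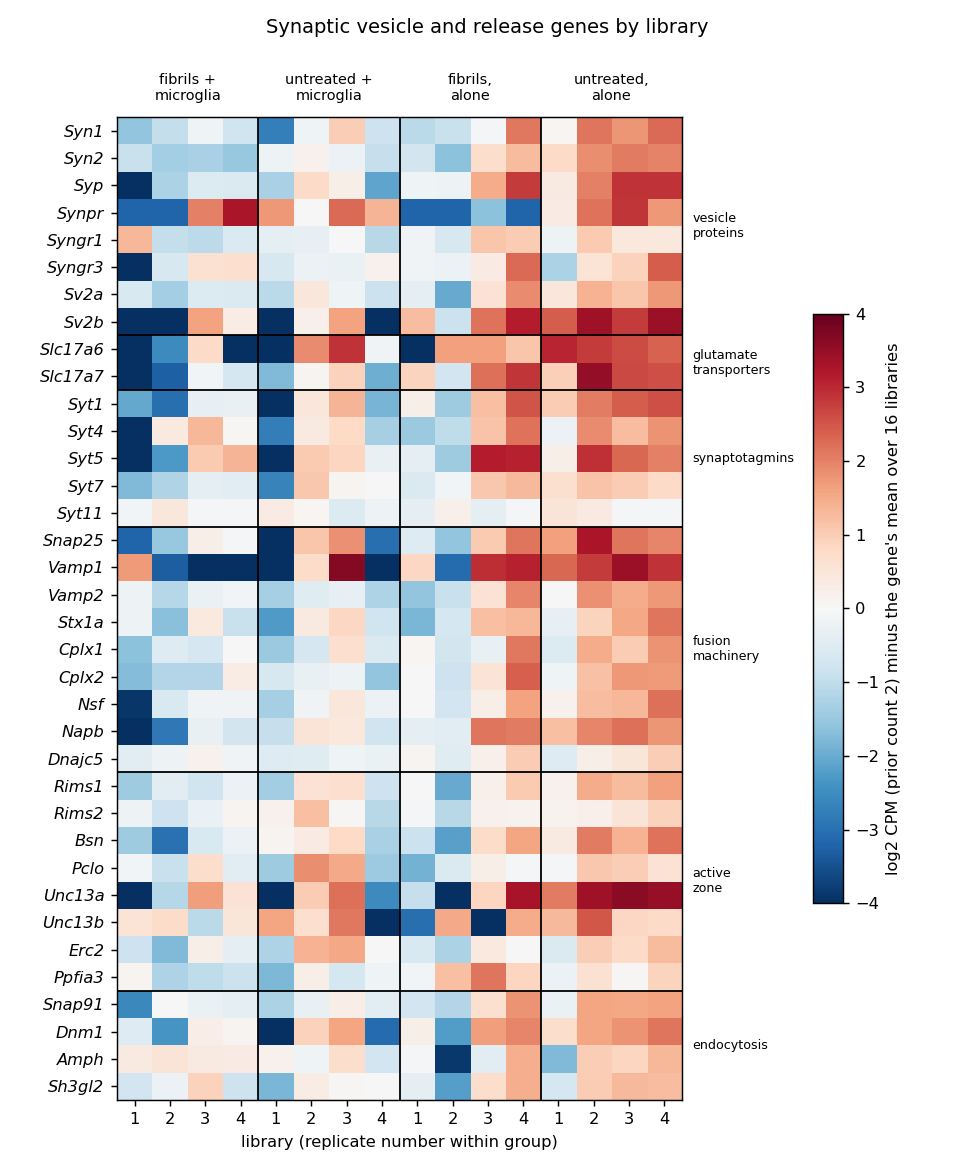
Heat map of 36 vesicle and release genes (rows, by role) in 16 libraries (columns, 4 per group); colour is log2 CPM with a prior count of 2 minus the gene's mean over all libraries, limited to between -4 and 4. Most rows are red in replicates 2, 3 and 4 of untreated neurons alone and in replicate 4 of loaded neurons alone, and blue in replicate 1 of both co-culture groups, while the Syt11 row is pale throughout.

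Neurons kept with microglia had lower levels of most of these genes than neurons alone, taken as the average of the effects with and without fibrils. Of 36 genes, 34 had a lower level in co-culture, with a median log2 change of -1.38 against -0.03 over all 13139 genes, of which 51.4% were lower. With edgeR's quasi-likelihood test, adjusted by Benjamini-Hochberg over all genes, 3 of 36 passed an adjusted p of 0.05, all lower (Syn2, Cplx2 and Vamp2), where 0.974% of all genes were called lower and 2.19% in either direction. DESeq2 called 15 members, all lower, where it called 8.33% of all genes, and limma-voom 6, all lower, where it called 4.96%. At an unadjusted p under 0.05 there were 18, all lower, where 8.79% of all genes were. The call of Syn2 was made in each of 24 alternative analyses, those of Cplx2 and Vamp2 in 11 and 5 of them. No member had all 8 co-culture libraries below all 8 libraries of neurons alone, a pattern shown by 0.221% of all genes. When reads were scaled to library totals instead of TMM, the median of all genes moved to 0.18 and that of the members to -1.20, with 31 of 36 lower.

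Syn2, a synapsin of the vesicle surface (mm10 chr6:115134902-115282006, plus strand), fell in co-culture. Its levels were 80.9, 58.8, 60.5 and 52.7 CPM in loaded co-cultures, 131, 168, 127 and 78.6 CPM in untreated co-cultures, 89.1, 47.6, 242 and 364 CPM in loaded neurons alone, and 253, 549, 634 and 594 CPM in untreated neurons alone. All co-culture libraries lay below 6 of the 8 libraries of neurons alone. Replicate 1 of loaded neurons alone lay among the co-cultures, and its replicate 2 was the lowest of all 16 libraries. The log2 change was -1.78 ± 0.33 (SE), 3.44-fold lower, with an edgeR adjusted p of 0.00574. Over the alternatives it ran from -1.93 to -1.50, with adjusted p from 2.34e-05 to 0.0237.

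Cplx2, a complexin that binds the assembled SNARE complex (chr13:54371349-54383917, plus strand), also fell. It had 22.9, 34.0, 34.0 and 95.1 CPM in loaded co-cultures, 49.1, 62.0, 66.7 and 25.9 CPM in untreated co-cultures, 77.2, 43.4, 112 and 406 CPM in loaded neurons alone, and 68.4, 173, 255 and 249 CPM in untreated neurons alone. The groups overlapped: 5 of the 8 libraries of neurons alone were above every co-culture library. The log2 change was -1.82 ± 0.44 (SE; edgeR adjusted p = 0.0344, 3.54-fold lower). Vamp2, the vesicle SNARE synaptobrevin-2 (chr11:69088490-69092384, plus strand), had 92.4, 47.7, 88.7 and 98 CPM in loaded co-cultures, 42.0, 75.7, 84.2 and 45.2 CPM in untreated co-cultures, 35.3, 57.1, 159 and 415 CPM in loaded neurons alone, and 105, 381, 296 and 354 CPM in untreated neurons alone. Its lowest value over all libraries was in loaded neurons alone, whereas every library of untreated neurons alone was above every co-culture library. It changed by -1.61 ± 0.42 on the log2 scale (SE; edgeR adjusted p = 0.0475, 3.06-fold lower). Leaving out a single library removed the call of Cplx2 in 11 of 16 cases and that of Vamp2 in 13 of 16, and Syn2 stayed called in 16 of 16. In 10 of the 16 cases Syn2 was the only member called: those without replicate 2 or 3 of the loaded co-cultures, replicate 1, 2 or 4 of the untreated co-cultures, replicate 3 or 4 of loaded neurons alone, or replicate 2, 3 or 4 of untreated neurons alone.

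**Figure D2:**
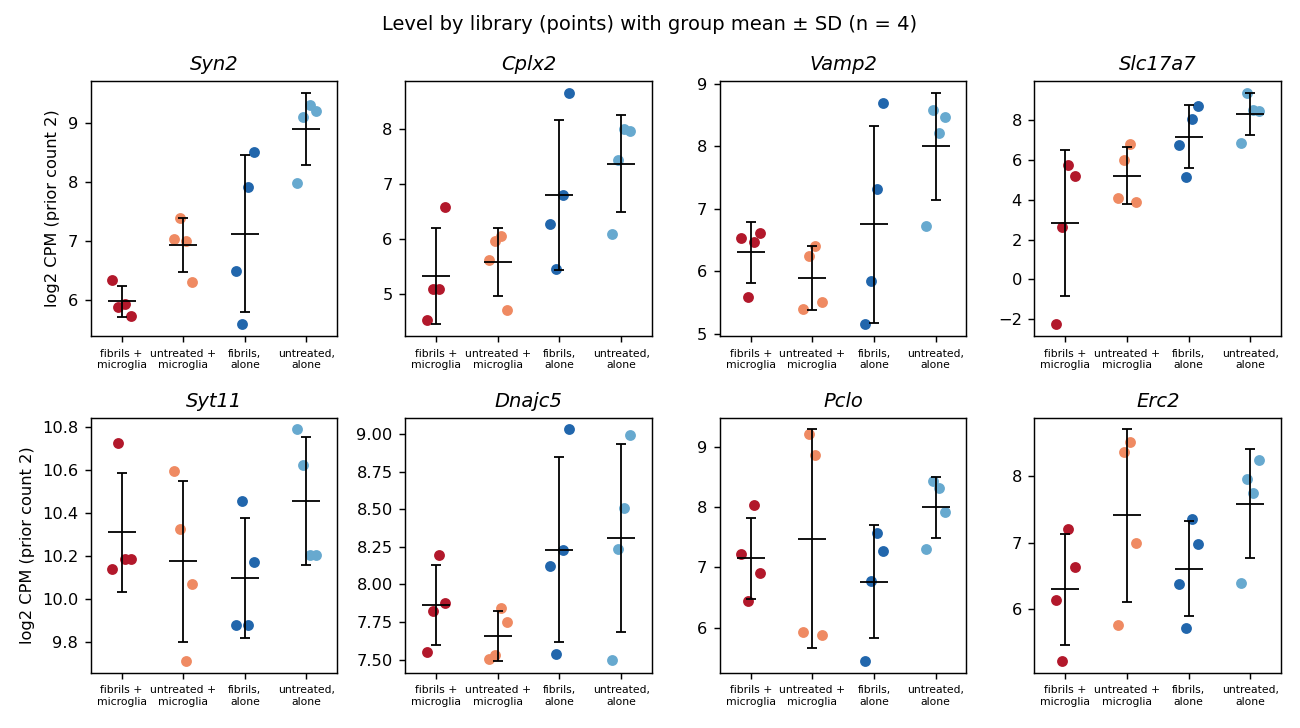
Levels of 8 genes in each library (points, log2 CPM with a prior count of 2) by group, with the mean and SD over 4 libraries (black). Syn2, Cplx2, Vamp2 and Slc17a7 sit highest in untreated neurons alone, while the groups overlap for Syt11, Pclo and Erc2; the lone low point of Slc17a7 is a library with a count of 0.

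Among vesicle proteins, 7 of 8 were lower in co-culture, where 51.4% of all genes were, with a median log2 change of -1.58. Syp (synaptophysin, a major protein of the vesicle membrane) changed by -2.62 ± 0.77 (SE; edgeR adjusted p = 0.0955) and Syn1 by -1.70 ± 0.54 (adjusted p = 0.114), neither of which passed. Sv2a had 126, 76.4, 132 and 130 CPM in loaded co-cultures, 92.7, 265, 171 and 108 CPM in untreated co-cultures, 152, 48.0, 290 and 718 CPM in loaded neurons alone, and 267, 509, 416 and 646 CPM in untreated neurons alone. Here again untreated neurons alone stood above all co-culture libraries and replicates 1 and 2 of loaded neurons alone did not, and the change of -1.46 ± 0.40 did not pass (edgeR adjusted p = 0.0632). Its relative Sv2b was at a count of 0 in replicates 1 and 2 of the loaded co-cultures and replicate 1 of the untreated co-cultures, and ranged over 5.85 to 119 CPM in neurons alone. The exception to the direction was Synpr, which had 0 to 18.3 CPM in loaded co-cultures, 1.69 to 9.12 CPM in untreated co-cultures, 0 to 0.410 CPM in loaded neurons alone and 2.23 to 13.9 CPM in untreated neurons alone. It was at 0 in 3 of the 4 libraries of loaded neurons alone, so no fold is given for it. In the annotation, the last 500 bases of Syn1 overlap exons of Araf on the opposite strand, and those of Unc13a overlap exons of Colgalt1. The strand setting of the authors' counting is not given in the sources used here, so the values of Syn1 and Unc13a are uncertain.

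Both glutamate transporters were lower, where 51.4% of all genes were. Slc17a7 had 0, 5.91, 54.4 and 36.2 CPM in loaded co-cultures, 17.1, 64.0, 113 and 14.9 CPM in untreated co-cultures, 109, 34.8, 272 and 424 CPM in loaded neurons alone, and 115, 671, 369 and 354 CPM in untreated neurons alone. All 4 libraries of untreated neurons alone were above all co-culture libraries, and replicates 1 and 2 of loaded neurons alone were not. The log2 change of -2.99 ± 0.88 was the largest decrease among the members and did not pass (SE; edgeR adjusted p = 0.103). Slc17a6 changed by -1.67 ± 1.17 (adjusted p = 0.524). The summed level of 9 excitatory neuron markers moved with them: 218 to 847 CPM in loaded co-cultures, 233 to 2018 CPM in untreated co-cultures, 1328 to 6567 CPM in loaded neurons alone and 5656 to 8093 CPM in untreated neurons alone. Of 9 tested inhibitory neuron markers 7 were lower too, where 51.4% of all genes were, with a median log2 change of -1.14. The 10 listed inhibitory markers summed to 16.8 to 190 CPM in loaded and 27.9 to 152 CPM in untreated co-cultures. In neurons alone they summed to 49.9 to 396 CPM (loaded) and 71.8 to 416 CPM (untreated), overlapping the co-cultures. The part of either marker list in the result was not tested.

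Of 5 synaptotagmins, all were lower, where 51.4% of all genes were, with a median log2 change of -1.12. Syt11 changed by only -0.03 ± 0.19 (SE, edgeR adjusted p = 0.982), and by 0.19 with library-total scaling. Syt11 had 1129, 1694, 1166 and 1166 CPM in loaded co-cultures, 1547, 1282, 838 and 1074 CPM in untreated co-cultures, 940, 1407, 940 and 1155 CPM in loaded neurons alone, and 1771, 1578, 1178 and 1181 CPM in untreated neurons alone. The groups overlapped throughout, and its highest and lowest library differed by far less than those of Syt1, which ran from 9.20 to 704 CPM in co-culture and from 103 to 1651 CPM in neurons alone. Syt1 changed by -2.17 ± 0.78 (adjusted p = 0.178), Syt7, a slow calcium sensor, by -1.12 ± 0.39 (adjusted p = 0.140), Syt5 by -1.93 ± 1.13 (adjusted p = 0.428) and Syt4 by -1.08 ± 0.73 (adjusted p = 0.518).

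The fusion machinery held 2 of the 3 calls, against 0.974% of all genes called lower. All 9 of its genes were lower, where 51.4% of all genes were, with a median log2 change of -1.61. At an unadjusted p under 0.05 there were 7, all lower, where 8.79% of all genes were. Whether roles differ in co-culture was not tested. Napb, an adaptor that brings NSF to the SNARE complex, changed by -2.30 ± 0.63 (SE; edgeR adjusted p = 0.0781) and Nsf itself by -1.39 ± 0.47 (adjusted p = 0.137). Cplx1 changed by -1.42 ± 0.44 (adjusted p = 0.102), the plasma membrane SNAREs Snap25 and Stx1a by -1.69 ± 0.87 (adjusted p = 0.362) and -1.16 ± 0.51 (adjusted p = 0.259), and Vamp1 by -1.75 ± 1.40 (adjusted p = 0.602). The smallest change was that of Dnajc5, which encodes the vesicle chaperone CSPα. It had 187, 227, 293 and 235 CPM in loaded co-cultures, 181, 185, 229 and 216 CPM in untreated co-cultures, 278, 186, 299 and 523 CPM in loaded neurons alone, and 180, 301, 364 and 509 CPM in untreated neurons alone. Its lowest library belonged to untreated neurons alone, and the change of -0.60 ± 0.24 did not pass (edgeR adjusted p = 0.202).

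Active zone genes had a smaller median change, -0.66, with 7 of 8 lower, where 51.4% of all genes were. None was called, where 2.19% of all genes were. At an unadjusted p under 0.05 there were 3, all lower, where 8.79% of all genes were. Within the active zone genes the log2 changes ran from -1.87 to 0.23. Unc13a, which primes vesicles, changed by -1.87 ± 1.26 (SE; edgeR adjusted p = 0.517), Bsn by -1.48 ± 0.49 (adjusted p = 0.118), Ppfia3, a liprin-α, by -1.37 ± 0.37 (adjusted p = 0.0509) and Rims1 by -1.02 ± 0.38 (adjusted p = 0.170). Erc2, an ELKS scaffold, Rims2 and Unc13b changed by -0.11 ± 0.38, -0.15 ± 0.31 and -0.30 ± 1.00, with adjusted p of 0.910 or more, and each turned positive under at least 1 alternative, Erc2 and Rims2 with library-total scaling. Pclo had 150, 86.9, 263 and 120 CPM in loaded co-cultures, 60.5, 596, 468 and 58.9 CPM in untreated co-cultures, 43.4, 110, 191 and 154 CPM in loaded neurons alone, and 159, 346, 321 and 243 CPM in untreated neurons alone. Its highest and its next to highest library were untreated co-cultures, and so were 2 of its 3 lowest. The change of 0.23 ± 0.46 (edgeR adjusted p = 0.900) became -0.083 with limma-voom.

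All 4 endocytosis genes were lower, where 51.4% of all genes were, with a median log2 change of -1.07. None was called, where 2.19% of all genes were. Snap91, the clathrin adaptor AP180, had 12.6, 78.1, 63.7 and 59.1 CPM in loaded co-cultures, 31.6, 62.0, 92.1 and 56.7 CPM in untreated co-cultures, 45.4, 33.6, 118 and 270 CPM in loaded neurons alone, and 63.6, 228, 223 and 234 CPM in untreated neurons alone. Replicates 2, 3 and 4 of untreated neurons alone and 3 and 4 of loaded neurons alone stood above all co-cultures, and the change was -1.38 ± 0.44 (SE; edgeR adjusted p = 0.108). Dynamin-1 (Dnm1) changed by -1.36 ± 0.76, endophilin-A1 (Sh3gl2) by -0.77 ± 0.45 and amphiphysin (Amph) by -0.21 ± 0.50, with adjusted p of 0.401 to 0.922, and Amph turned positive under 4 alternatives, 0.26 without replicate 4 of loaded neurons alone among them.

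**Figure D3:**
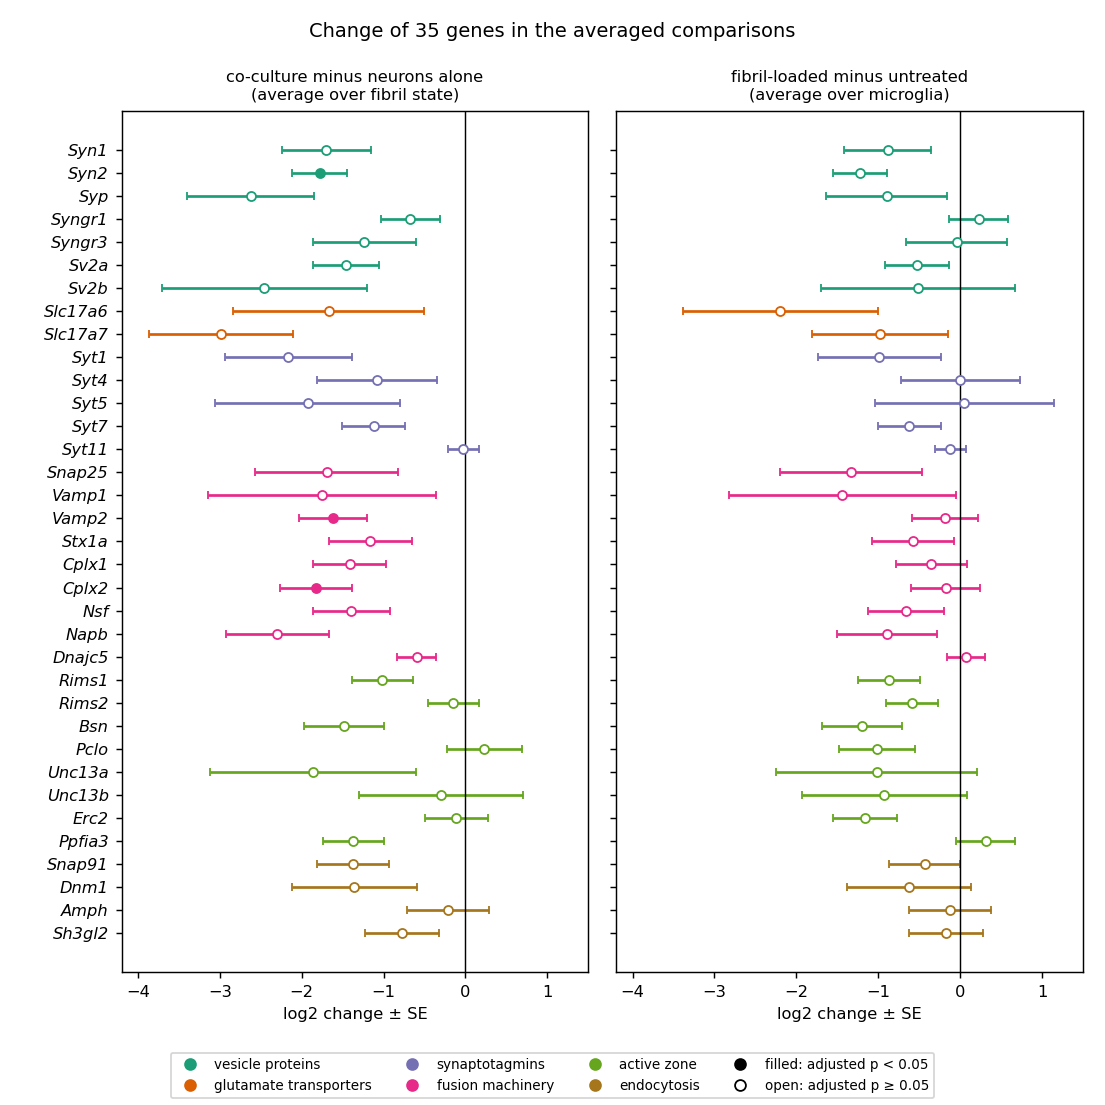
Log2 change with its SE for 35 genes (Synpr is left out, since it was at 0 in 3 of 4 libraries of loaded neurons alone) in co-culture against neurons alone (left) and in loaded against untreated neurons (right), each averaged over the other factor; filled points passed an edgeR adjusted p of 0.05. On the left only Syn2, Cplx2 and Vamp2 are filled and all but Pclo lie below 0 (Pclo is at -0.083 with limma-voom, and Syt11, Erc2 and Rims2 lie above 0 with library-total scaling); on the right none is filled.

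The same genes were set beside neuronal identity genes that are not part of the release machinery, such as Map2, Tubb3 and Rbfox3. Of these 18 genes, 15 were lower in co-culture, where 51.4% of all genes were, with a median log2 change of -1.50. There were 5 called, all lower, where 0.974% of all genes were called lower. In each library the median log2 CPM of the vesicle and release genes lay below that of the identity genes, with differences of -1.99 to -0.94 in loaded co-cultures, -1.85 to -0.48 in untreated co-cultures, -1.56 to -0.81 in loaded neurons alone and -1.67 to -0.71 in untreated neurons alone. These ranges overlap, but so did those of the members' median itself. That median was 4.55 to 5.87 in loaded co-cultures and 4.55 to 6.61 in untreated co-cultures. It was 5.10 to 7.69 in loaded and 6.08 to 7.89 in untreated neurons alone. The overlap therefore cannot show whether the members changed more or less than other neuronal transcripts. Transcripts of the oligodendrocyte lineage went the other way, with 15 of 16 higher in co-culture, where 48.6% of all genes were. There were 13 called higher, where 1.22% of all genes were. Of 10 astrocyte markers 9 were lower, where 51.4% of all genes were, and none was called, where 2.19% of all genes were. The part of these shifts in the members' lower levels was not tested. Leaving out both co-cultures high in microglial transcripts gave the members a median change of -1.15, against -0.06 over all genes. Syn2 was then the only member called, where 152 of 13551 genes were called.

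**Figure D4:**
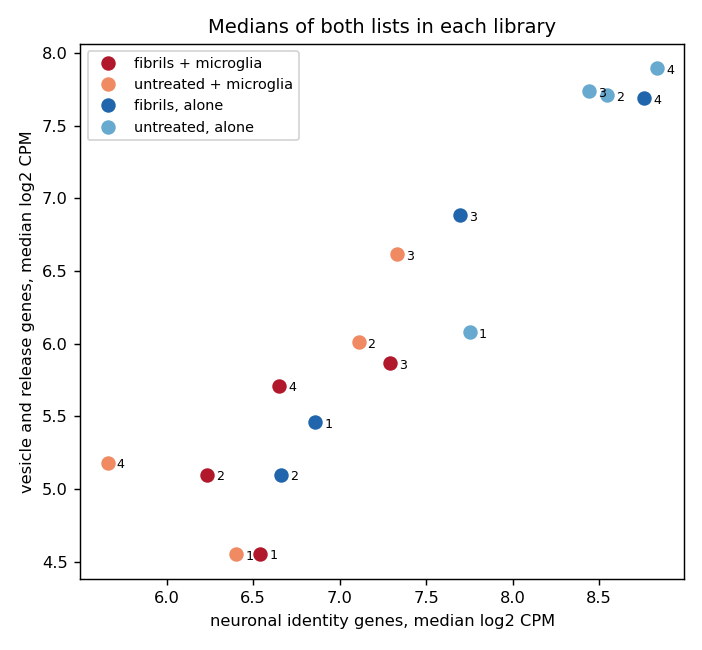
Median log2 CPM of 36 vesicle and release genes against that of 18 neuronal identity genes, 1 point per library, numbered by replicate and coloured by group. Both medians are highest in replicates 2, 3 and 4 of untreated neurons alone and replicate 4 of loaded neurons alone, and both are low in most co-culture libraries.

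The microglia effect was also taken within each fibril state. In untreated neurons, 34 of 36 genes were lower in co-culture, with a median log2 change of -1.45 (all genes -0.02, 50.8% of them lower), and none passed edgeR's adjusted p, where 0.122% of all genes did; 13 had an unadjusted p under 0.05, all lower (4.51% of all genes). DESeq2 called 2 of 36 (Syn2 and Vamp2), where it called 2.25% of all genes, and limma-voom 1 (Syn2), where it called 0.578%. For 7 of 36 genes (Syn2, Sv2a, Sv2b, Slc17a7, Vamp2, Cplx2 and Napb) all 4 untreated co-cultures lay below all 4 libraries of untreated neurons alone, a pattern of 3.81% of all genes. Syn2 changed by -2.01 ± 0.47 (SE; edgeR adjusted p = 0.101) and Vamp2 by -2.20 ± 0.60 (adjusted p = 0.205). Syn2 passed without replicate 2 or replicate 4 of loaded neurons alone, or replicate 1 of untreated neurons alone, and Vamp2 passed without replicate 4 of loaded neurons alone.

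In loaded neurons, 32 of 36 genes were lower in co-culture, with a median log2 change of -1.29 (all genes -0.03, 51.2% of them lower) and none called by edgeR, where 0.114% of all genes were. At an unadjusted p under 0.05 there were 11, 10 of them lower (6.26% of all genes), while DESeq2 called 4 (3 lower), where it called 3.74% of all genes, and limma-voom 0, where it called 0.312%. The smallest p belonged to Ppfia3 (-1.90 ± 0.53, SE; edgeR adjusted p = 0.171) and Syn2 (-1.55 ± 0.46, adjusted p = 0.199). Syp was the only member without overlap, at 0 to 22.0 CPM in loaded co-cultures and 28.2 to 229 CPM in loaded neurons alone (2.91% of all genes had this pattern). The median rested in part on replicate 4 of loaded neurons alone: without it the median was -0.41. The effects with and without fibrils were not shown to differ. Their difference had 0 members called by edgeR (0% of all genes), by DESeq2 (1.42% of all genes) and by limma-voom (0%), and 0 with an unadjusted p under 0.05, where 4.03% of all genes had one. For Syn2 it was 0.45 ± 0.64, for Cplx2 0.09 ± 0.85 and for Vamp2 1.17 ± 0.81 (SE; edgeR adjusted p = 1 for each).

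The effect of fibrils was taken in the same way. Averaged over both culture states, 31 of 36 genes were lower in loaded than in untreated neurons, with a median log2 change of -0.62 (all genes -0.05, 53.4% of them lower). No gene of the 13139 passed edgeR's adjusted p (0% called); 5 members had an unadjusted p under 0.05, all lower, where 3.04% of all genes did. DESeq2 called 1 of 36 members, Syn2, a share near the 1.96% it called of all genes, and limma-voom 0 (0% of all genes). Of the 5, Syn2 changed by -1.22 ± 0.33 (SE; edgeR adjusted p = 0.584), and the others were the active zone genes Bsn (-1.20 ± 0.49, adjusted p = 0.733), Erc2 (-1.16 ± 0.39, adjusted p = 0.588), Pclo (-1.02 ± 0.47, adjusted p = 0.749) and Rims1 (-0.87 ± 0.37, adjusted p = 0.747). By role, the median was -1.59 for the 2 glutamate transporters, -0.97 for the active zone (7 of 8 genes lower), -0.71 for vesicle proteins (7 of 8), -0.57 for the fusion machinery (8 of 9), -0.30 for endocytosis (4 of 4) and -0.12 for synaptotagmins (3 of 5); whether roles differ was not tested. Erc2 had 37.0 to 147 CPM in loaded co-cultures and 53.8 to 366 CPM in untreated co-cultures, and 52.2 to 163 CPM in loaded and 84.0 to 304 CPM in untreated neurons alone, so the groups overlapped in both culture states.

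In neurons alone, 33 of 36 genes were lower with fibrils, where 52.4% of all genes were, with a median log2 change of -0.75; 0 were called by edgeR (0% of all genes), DESeq2 (1.32%) or limma-voom (0%), and 2 had an unadjusted p under 0.05, both lower (2.89% of all genes). These were Synpr and Syn2 (-1.45 ± 0.46, SE; edgeR adjusted p = 0.627). Slc17a6 and Synpr had all loaded libraries below all untreated ones, where 2.22% of all genes did, with Slc17a6 at 0 to 15 CPM in loaded and 24.9 to 40.1 CPM in untreated neurons alone. The median without replicate 4 of loaded neurons alone was -1.45, and -0.45 and -0.47 without its replicates 1 and 2. In co-cultures 25 of 36 genes were lower with fibrils, where 52.5% of all genes were, with a median of -0.46. None was called by edgeR (0% of all genes), DESeq2 (0.989%) or limma-voom (0%), 2 were lower at an unadjusted p under 0.05, where 2.14% of all genes were (Erc2, -1.31 ± 0.55, and Syn2, -1.0 ± 0.46, edgeR adjusted p = 1 for each), and none was without overlap (1.04% of all genes). The median was 0.0070 when replicate 3 of the untreated co-cultures was left out. The comparisons share libraries with each other, so their values are not independent.

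Ratios between related members within a library do not depend on library scaling where both counts are well above 0. At counts near 0 the 0.5 added to each count makes the ratio depend on depth. For 10 pairs, the log2 ratio of counts plus 0.5 was compared in co-culture against neurons alone and in loaded against untreated neurons, 20 comparisons in all, with exact two-sided permutation tests within the other factor. None passed after adjustment over the 20, and 3 had an unadjusted p under 0.05, all in co-culture. The Sv2b/Sv2a ratio averaged -6.66 ± 4.69 and -6.51 ± 3.92 in loaded and untreated co-cultures, and -2.76 ± 0.23 and -2.31 ± 0.16 in loaded and untreated neurons alone (SD, n = 4 each; difference -4.05, exact permutation p = 0.0188, adjusted p = 0.321). The ratio ran from -3.02 to -2.14 across neurons alone and from -11.19 to -1.97 in co-culture. Values of -8.07 and below are those of libraries in which Sv2b had a count of 0 to 3. Replicate 4 of the loaded co-cultures (-3.28, Sv2b count 116) also lay below all libraries of neurons alone. So did replicate 2 of the untreated co-cultures (-4.39, Sv2b count 89). Without replicate 3 of the loaded co-cultures this ratio passed (exact permutation, adjusted p = 0.0245). Vamp1/Vamp2 was lower by a log2 difference of -3.59 (exact permutation p = 0.0482, adjusted p = 0.321), again with libraries at 0 for Vamp1. Pclo/Bsn averaged 2.99 ± 0.98 and 1.99 ± 1.32 in loaded and untreated co-cultures, and 1.45 ± 1.42 and 0.99 ± 0.56 in loaded and untreated neurons alone (SD, n = 4 each), a difference of 1.27 (exact permutation p = 0.0384, adjusted p = 0.321). In contrast, the Syn2/Syn1 ratio of co-cultures minus that of neurons alone was 0.016 (exact permutation p = 0.978), with libraries from 0.07 to 3.85 in co-culture and 0.45 to 2.06 in neurons alone.

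**Figure D5:**
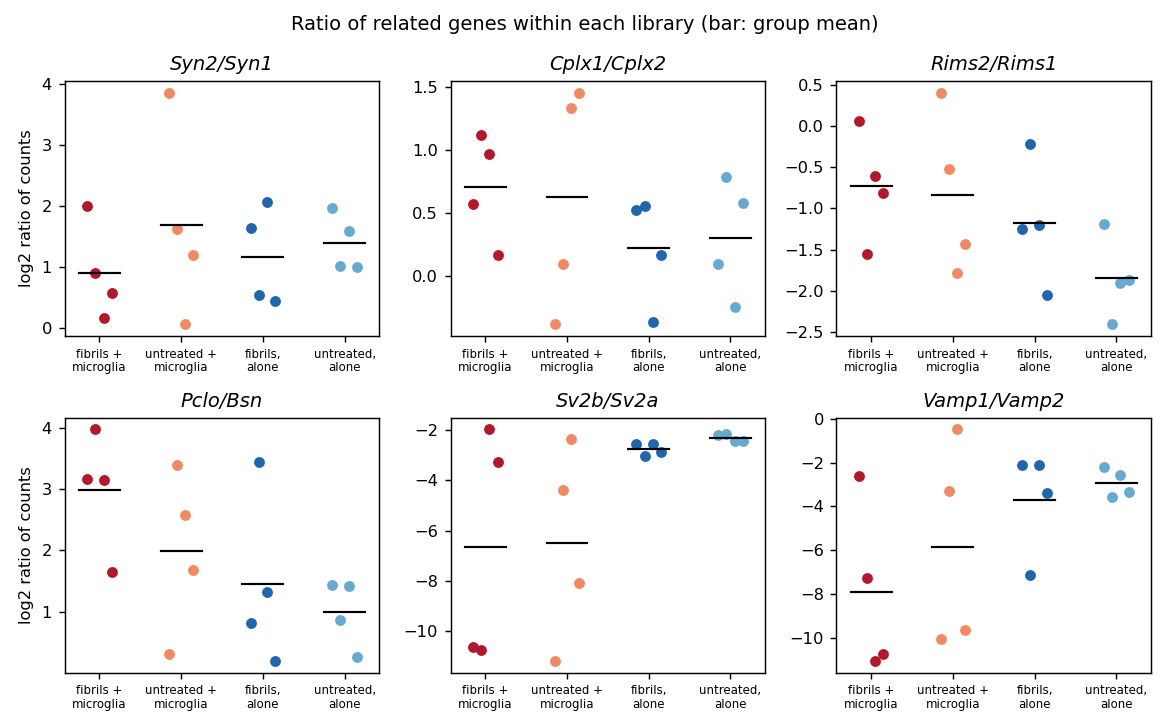
Log2 ratio of counts (plus 0.5) of 6 pairs of related genes in each library (points) with the group mean (bar), 4 libraries per group. Sv2b/Sv2a is tight in neurons alone and spread from -11.19 to -1.97 in co-culture, while the groups overlap for Syn2/Syn1 and Cplx1/Cplx2.

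Other genes of vesicle release and retrieval were taken from 4 lists with 103 genes, of which 98 were tested. In co-culture 73 were lower and 25 higher than in neurons alone, where 51.4% of all genes were lower, with a median log2 change of -0.58. By edgeR 5 were called, where 2.19% of all genes were. Lower were Syt13, a synaptotagmin relative (-2.50 ± 0.50, SE; edgeR adjusted p = 0.0105), Ap2a2, a subunit of the clathrin adaptor AP-2 (-1.45 ± 0.34, adjusted p = 0.0221) and the SNARE Snap47 (-1.17 ± 0.27, adjusted p = 0.0203). Higher were Cask, a presynaptic scaffold kinase (1.26 ± 0.30, adjusted p = 0.0262), and Sh3gl3, an endophilin (1.37 ± 0.36, adjusted p = 0.0432). Syt13 had 5.64 to 27.9 CPM in loaded and 9.35 to 22.4 CPM in untreated co-cultures, against 13.6 to 186 CPM in loaded and 30.2 to 118 CPM in untreated neurons alone. Cask had 120 to 287 CPM in loaded and 98.4 to 180 CPM in untreated co-cultures, against 20.5 to 94.4 CPM in loaded and 71.6 to 122 CPM in untreated neurons alone, overlapping through a single library of neurons alone above the lowest co-cultures. By edgeR none of the 98 was called in the 5 comparisons given next. At an unadjusted p under 0.05 there were 22 for microglia without fibrils, where 9.1% of all genes had one, and 15 for microglia with fibrils (11.7% of all genes). There were 6 for the fibril average (6.62% of all genes), 7 for fibrils in neurons alone (6.92%) and 2 for fibrils in co-culture (3.68%), near or below the share over all genes.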

How the data were processed

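QuantSeq forward libraries read transcripts at the poly(A) end, per the labels' protocols. Per the submitters' processing notes, STAR, Partek and DESeq2 were used, with no version stated, on the assembly mm10. Not given in the sources used here are the program that made the counts, whether it used strand, which annotation it read, and whether PCR copies were collapsed. Raw, unnormalized counts for each gene symbol were deposited by the authors. They also deposited a score per gene, their normalized values rounded to whole numbers, of which 99.99% lay within 0.6 of the count times a constant per library; it served as an alternative.

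Counts were fitted in R 4.3.3 with edgeR 4.0.16: filterByExpr (minimum count 10, minimum total 15), TMM scaling, and 1 robust quasi-likelihood fit with a mean per group over 16 libraries, adjusted by Benjamini-Hochberg over 13139 genes and called at 0.05. The average effect of microglia is the mean of the effects with and without fibrils, and that of fibrils the mean over both culture states. The biological coefficient of variation was 1.17. Log2 CPM used a prior count of 2. Ratios of members used exact permutation tests with 4900 permutations (smallest p 0.000408). Alternatives were DESeq2 size factors, library totals, no low-count filter, DESeq2 1.42.0, limma-voom (limma 3.58.1), limma on the authors' values, a fit to the contrast's groups only, a replicate block, the fit without both libraries rich in microglial transcripts, and each library left out in turn. The tests were tested on simulated data. No 2 libraries of a group agreed within sampling noise (chi-square per degree of freedom 67.5 to 253). Python 3.11.15, pandas 2.3.3 and matplotlib 3.10.9 joined and drew the tables. Gene positions come from GENCODE M21 and the windows before annotated starts from RefSeq, both on mm10. The 37 listed symbols each matched 1 GENCODE gene.

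The members, their roles and all other lists were chosen with earlier results of these data known. Values of every library are given for members called by edgeR and for the most abundant member of each role; of the other pathway lists, called genes are named. Rn45s, a ribosomal RNA precursor, took 9.35% to 26.8% of counts and was kept in the library totals. Libraries sharing a replicate number were not treated as pairs.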

Additional observations from a re-analysis of the deposited data

Results flagged for a closer look

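In 10 of 64 sets of 4 libraries examined (15 genes and the median of the members, in 4 groups), a single library stood apart from the other 3 by Dixon's criterion at the 95% level. Chance flags about 1 in 20 such sets. Levels are log2 CPM unless another unit is given, and no cause was tested.

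In untreated neurons alone, replicate 1 was low for 4 of these sets. The median of the members was 6.08 there and 7.71 to 7.89 in the other 3 libraries. Syn2 was at 7.98 against 9.10 to 9.31, Snap91 at 6.0 against 7.80 to 7.87, and Amph at 4.34 against 6.96 to 7.44. Rn45s took 26.8% of the counts of this library, the highest share of the 16. Its astrocyte markers summed to 7452 CPM, against 2403 to 2810 CPM in the rest of the group. Its neuronal identity genes summed to 4769 CPM, against 8827 to 11383 CPM.

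In loaded co-cultures, replicate 2 was low for Vamp2 (5.58, against 6.47 to 6.62 in the others) and Sv2a (6.26, against 6.98 to 7.04), and high for Syt11 (10.73, against 10.14 to 10.19) and Amph (6.62, against 6.43 to 6.45). Replicate 1, which was rich in microglial transcripts, was low for Nsf (3.36, against 6.65 to 7.13) and Snap91 (3.68, against 5.89 to 6.29).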

How the results depend on the processing

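Median changes of the members kept their sign under all alternatives except 0.0070 for fibrils in co-culture without replicate 3 of the untreated co-cultures, and 29 of 36 members were lower in co-culture under all 24 alternatives. For the average microglia effect, the 3 calls among the members (288 over all genes) became 1 with library totals (422), 15 with DESeq2 (1094) and 6 with limma-voom (652). They became 9 with the replicate block (366) and 1 without both libraries rich in microglial transcripts (152). With single libraries left out they numbered 1 to 5 (158 to 333 over all genes). For microglia without fibrils, 0 calls (16 over all 13139 genes) became 2 with DESeq2 (295) and 1 with limma-voom (76). With single libraries left out they numbered 0 to 2 (0 to 39 over all genes). For microglia with fibrils DESeq2 called 4, where it called 3.74% of all genes, and for the fibril average 1, where it called 1.96%. The ratios passing numbered 0 to 1 when single libraries were left out.

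Members near 0 in co-culture changed sign. Amph was 0.33 with limma-voom, 0.37 on the authors' values and 0.012 with the replicate block; Erc2 was 0.072 with library totals and 0.10 without both microglia-rich libraries; Pclo was -0.083 with limma-voom and -0.071 on the authors' values; Rims2 was 0.050 and Syt11 0.19 with library totals; Unc13b was 0.052 with limma-voom and 0.084 with the replicate block. With single libraries left out, Amph ran from -0.39 to 0.26, Erc2 from -0.29 to 0.051, Pclo from -0.061 to 0.40, Syt11 from -0.11 to 0.055 and Unc13b from -0.57 to 0.0054. The cause of these shifts was not tested.

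The labels do not say that shared replicate numbers mark a shared culture. Deviations from group means correlated by -0.11 to 0.22 over 24 same-numbered pairs, 4 of them over 0.1, and 9 of 16 libraries correlated best with their own number. For the average microglia effect, the replicate block called 9 members: Cplx1, Cplx2, Napb, Nsf, Snap91, Syn1, Syn2, Syp and Syt7. It called 366 over all genes, and did not call Vamp2 (edgeR adjusted p = 0.0714). Elsewhere it called 0 members. Over all genes it called 38 for microglia without fibrils, 42 for microglia with fibrils and 0 in the other comparisons. Depth limits values at a count of 0, which allow up to 0.220 to 0.473 CPM.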

Other observations

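The other genes of vesicle release and retrieval can be split by role. Among 43 tested SNARE, Rab3 and active zone genes outside the members, 34 were lower and 9 higher in co-culture than in neurons alone, with a median log2 change of -0.81 and 2 called. Of 20 further vesicle proteins 15 were lower, with a median of -0.62 and 1 called. Of 24 endocytosis genes 15 were lower, with a median of -0.31 and 2 called in opposite directions. Of 11 calcium channel subunits and neurexins 9 were lower, with a median of -0.92, and none was called by edgeR, with 6 at an unadjusted p under 0.05. Over all tested genes the median was -0.03, 51.4% were lower and 2.19% were called by edgeR. At an unadjusted p under 0.05, 8.79% of all genes were lower. Differences between these lists were not tested.

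Sh3gl3 had 68.2 to 127 CPM in loaded and 29.5 to 85.4 CPM in untreated co-cultures, against 14.4 to 37.4 CPM in loaded and 14.8 to 42.2 CPM in untreated neurons alone. Ap2a2 had 8.77 to 43.5 CPM in loaded and 20.4 to 77.4 CPM in untreated co-cultures, against 78.6 to 133 CPM in loaded and 71.1 to 138 CPM in untreated neurons alone. Ap2a2 is thus without overlap in loaded neurons and overlaps in untreated neurons; the effect with fibrils minus that without was -1.08 ± 0.66 on the log2 scale and did not pass (SE; edgeR adjusted p = 1).

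Syn3 was counted at 8, 17 and 139 in replicates 1, 2 and 3 of the untreated co-cultures, at 135 in replicate 3 of loaded neurons alone and at 1 in replicate 1 of untreated neurons alone, and at 0 in the other 11 libraries.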
